A study of Mus musculus with 12 samples.

Results

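The Leydig steroidogenic genes are 8 genes named for their role in the hormone output of Leydig cells, namely Insl3, Lhcgr, Star, Cyp11a1, Cyp17a1, Hsd3b1, Hsd3b6 and Hsd17b3. They were listed by name with earlier results of these data known, and all 8 were present among the 28643 gene symbols of the table. Their level was followed here as the level of interstitial RNA in libraries of sorted germ cells. The sorted cells were round spermatids, gated on a flow cytometer with cycloheximide present, from testes of male mice aged 8 weeks, either Igf2bp3+/- (the control) or Igf2bp3-/-, in which both alleles carry a frameshift made with Cas9 in a KH domain of this RNA-binding protein. Total RNA of the sorted cells was sequenced as RNA-seq, and mRNA carrying 4 or more ribosomes, taken from a sucrose gradient, was sequenced as RNC-seq, named after the ribosome nascent-chain complex. There were 3 replicates in each of the 4 groups, 12 libraries in all. By the titles and the paper every control is Igf2bp3+/- and so carries a mutated copy, whereas the descriptions of the same libraries name them WT. The titles are followed here, and none of them names a wild-type mouse. By the methods the knockout males used were those with impaired fertility. The methods describe cells isolated from each mouse, but the labels do not tie a replicate to an animal, so the p-values measure the spread between these libraries, which may be technical in part.

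Leydig cells lie between the seminiferous tubules, outside the germ line. Luteinizing hormone binds its receptor, encoded by Lhcgr, and cholesterol is then carried into the mitochondrion by STAR. CYP11A1 cleaves the cholesterol side chain to give pregnenolone, and the 3β-hydroxysteroid dehydrogenases HSD3B1 and HSD3B6, CYP17A1 and HSD17B3 turn it into testosterone. INSL3 is a peptide hormone, made by the same cells and needed for testis descent. Round spermatids are haploid germ cells and are not a known source of testosterone.

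The defining genes of spermatids were abundant in every library. The 11 spermatid markers, among them the protamine genes Prm1 and Prm2, summed to between 9124 and 22944 FPKM (a read density scaled for transcript length and library size), while the 8 Leydig genes summed to between 6.82 and 103 FPKM. FPKM above 0 was listed for 23554 to 25633 genes in RNA-seq and for 21490 to 22797 genes in RNC-seq. The files used here hold no read counts. The lowest FPKM values, multiplied by transcript length, fell on common steps that approximate the worth of 1 read, and by these steps Igf2bp3-/- RNA-seq replicate 1 was the deepest library, with the other 11 at 0.382 to 0.583 of its depth. Igf2bp3 mRNA stood at 33.4 to 38.6 FPKM in control RNA-seq and at 31.4 to 32.5 FPKM in knockout RNA-seq, and since a frameshift need not lower the mRNA, these values do not check the labels.

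The members are spread over 6 chromosomes of GRCm38 (positions from GENCODE M21). Lhcgr lies at chr17:88716481-88791990, Star at chr8:25806555-25815982, Cyp11a1 at chr9:58006411-58027023, Cyp17a1 at chr19:46667165-46673172 and Hsd17b3 at chr13:64058266-64089230, and of these only Cyp11a1 has exonic bases (3.02%) in another gene of the annotation, Gm17322. For the other 3, copies or overlaps bear on whose reads were counted. Insl3 (ENSMUSG00000079019.2, chr8:71689214-71690575, plus strand) lies within the span of Jak3, which encodes an immune kinase and runs in the same direction. Insl3 has 2 exons in its single transcript of 623 bases. Exon 1 (chr8:71689214-71689432, 219 bases) shares no base with a Jak3 exon, whereas all 404 bases of exon 2 (chr8:71690172-71690575) belong also to the last exon of the transcript Jak3-201, and an exon of Jak3-204 overlaps part of them. Together 64.85% of the exonic bases of Insl3 are shared, and reads from that part could have been given to either gene. The coding part of exon 1 (chr8:71689258-71689432) is shown because it is the coding sequence of Insl3 that Jak3 does not hold, with the start codon in capitals.
Insl3 exon 1: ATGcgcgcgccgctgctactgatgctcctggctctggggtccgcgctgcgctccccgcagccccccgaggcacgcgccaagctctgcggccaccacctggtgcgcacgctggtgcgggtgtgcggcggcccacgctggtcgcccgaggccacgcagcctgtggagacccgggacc

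**Figure D1:**
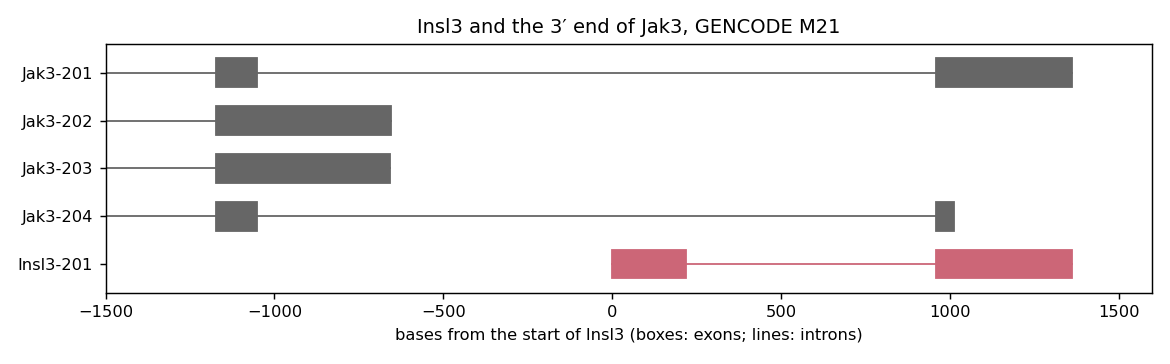
Exons (boxes) and introns (lines) of Insl3 and of the Jak3 transcripts that come near it, by distance in bases from the start of Insl3. Exon 1 of Insl3 stands alone over 219 bases, and its exon 2 of 404 bases lies on the last exon of Jak3-201 and overlaps that of Jak3-204.

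Hsd3b1 (chr3:98852194-98859794) and Hsd3b6 (chr3:98805504-98814443), both on the minus strand, are neighbouring paralogs. Their coding sequences are each 1119 bases long and differ at 112 of them, which leaves 89.99% identical, with the longest identical run at 72 bases. No stretch of 100 bases of the Hsd3b1 transcript recurs in another gene, and 56 of the 1703 such stretches of Hsd3b6 (3.29%) recur in Hsd3b2 or Hsd3b3. Neither Hsd3b2 nor Hsd3b3 is among the gene symbols with FPKM, so reads from them cannot be seen on their own. The first 120 coding bases of each are shown so that the distance between the paralogs can be seen, with the 20 bases that differ in capitals.
Hsd3b1: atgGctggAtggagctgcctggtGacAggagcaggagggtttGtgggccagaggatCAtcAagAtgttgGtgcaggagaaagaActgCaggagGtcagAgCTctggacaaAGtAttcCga
Hsd3b6: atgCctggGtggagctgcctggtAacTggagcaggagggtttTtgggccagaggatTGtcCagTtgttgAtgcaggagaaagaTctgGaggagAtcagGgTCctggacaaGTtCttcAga

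Upstream of the gene the pair was compared position by position from the annotated start sites, without an alignment. In RefSeq promoters of GRCm38.p6, which were given for 6 of the 8 members (7 start sites), the 250 bases before the start of Hsd3b1 and of Hsd3b6 carried the same base at 70 positions (28.0%). An inserted base or a shifted start site would lower this share, so it cannot say how alike the upstream sequences are. The last 100 of those bases lie at chr3:98859795-98859894 for Hsd3b1 and at chr3:98814444-98814543 for Hsd3b6, both on the minus strand, and are printed so that the pair can be compared upstream as well as in the coding sequence.
Hsd3b1 upstream: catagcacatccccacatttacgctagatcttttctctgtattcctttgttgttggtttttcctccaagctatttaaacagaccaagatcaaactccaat
Hsd3b6 upstream: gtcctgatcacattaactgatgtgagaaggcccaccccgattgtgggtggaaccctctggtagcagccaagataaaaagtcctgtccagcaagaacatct

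NR5A1 (SF-1) is a nuclear receptor that drives steroidogenic genes and binds sites built on AGGTCA. These letters, searched on both strands, were found in the 250 bases upstream of 2 of the 7 start sites given for the members, against 14.0% of all 32851 promoters of the table. With so few start sites this count cannot set the members apart. The match for Lhcgr lies in chr17:88792107-88792160 (minus strand), and that for Cyp11a1 before one of its start sites in chr9:58014900-58014951 (plus strand), with the letters in capitals below.
Lhcgr upstream: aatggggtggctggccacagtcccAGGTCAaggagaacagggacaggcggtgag
Cyp11a1 upstream: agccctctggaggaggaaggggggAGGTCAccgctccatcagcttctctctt

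The order of the members by FPKM, a level per length, was led by the same genes in every library. Insl3 was the highest member in all 12 libraries and made up between 64.1% and 90.9% of the summed FPKM of the 8 genes. Cyp17a1 came next in all 12. In control RNA-seq, Cyp11a1 (0.724 to 1.30 FPKM) and Hsd3b6 (0.762 to 1.04) followed with overlapping levels, and so did Star (0.540 to 0.713) and Hsd3b1 (0.475 to 0.546) below them. In knockout RNA-seq, Cyp17a1 was followed by Hsd3b1 (2.36 to 2.63 FPKM), Hsd3b6 (2.23 to 2.31), Cyp11a1 (1.65 to 2.04) and Star (0.945 to 1.20), none of which overlapped its neighbour. In RNC-seq Cyp11a1 overlapped both Hsd3b6 above it and Hsd3b1 below it by mean level, within either genotype. Lhcgr and Hsd17b3 were the lowest pair throughout.

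**Figure D2:**
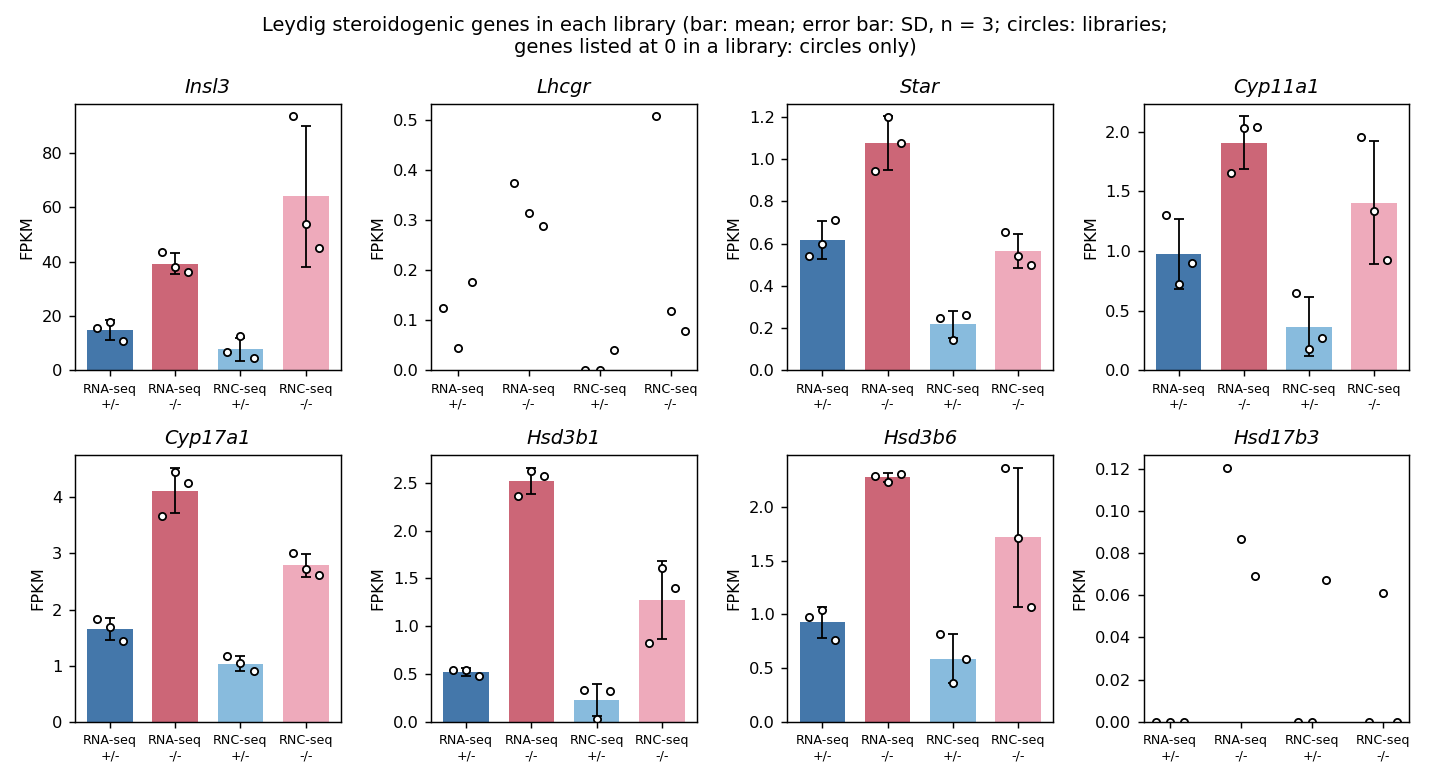
FPKM of the 8 members in the 12 libraries, with assay and genotype on the horizontal axis (+/- control, -/- knockout). Bars are means with the SD of 3 libraries and circles are libraries, and Lhcgr and Hsd17b3, listed at 0 in some libraries, have circles only. The 3 knockout RNA-seq libraries lie above the 3 control RNA-seq libraries in every panel, and Insl3 spreads from 44.9 to 93.5 FPKM in knockout RNC-seq.

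The first comparison asked how much Leydig RNA the sorted cells of each genotype held. In RNA-seq, 4 of the 7 members tested were significantly higher in Igf2bp3-/- libraries, namely Hsd3b1, Insl3, Cyp17a1 and Hsd3b6, against 0.197% of all 20352 genes tested that were higher (40 genes, beside 12 lower, 0.059%). No member was lower. The log2 difference ranged from 0.71 for Star to 2.07 for Hsd3b1, with a median of 1.22, against 0.05 over all genes tested. In the 7 members tested the 3 knockout libraries stood above the 3 control libraries, which was so for 14.1% of all genes tested, while 8.68% had all knockout libraries below. All 7 tested members had an unadjusted p under 0.05 with a higher level in the knockout, against 10.4% of all genes. Tests were made with limma on log2(FPKM + 0.1), which understates the change of low genes, and p-values were adjusted over all genes with the Benjamini-Hochberg method. In bulk RNA, more Leydig cells and more RNA per Leydig cell cannot be told apart, and the source of these transcripts was not tested.

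Of the hormone and its receptor, Insl3 had 15.7, 17.9 and 10.9 FPKM in the control RNA-seq libraries and 43.8, 38.0 and 36.1 FPKM in the knockout ones. The groups did not overlap, and the log2 difference was 1.42 ± 0.18 (SE, adjusted p = 0.0201 by limma). By the read steps, and with the sharing of exon 2 set aside, the control values rest on about 189 to 287 reads. Jak3 stood at 5.18, 4.67 and 6.21 FPKM in the control and 4.69, 5.86 and 5.53 FPKM in the knockout, overlapping, with a log2 difference of 0.01 ± 0.15. Lhcgr, the luteinizing hormone receptor, was near the floor, at 0.124, 0.0454 and 0.177 FPKM in the control and 0.373, 0.314 and 0.287 FPKM in the knockout. Its log2 difference of 1.03 ± 0.33 did not pass the limit (adjusted p = 0.226).

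For cholesterol entry and cleavage, Star had 0.540, 0.598 and 0.713 FPKM in control and 0.945, 1.20 and 1.08 FPKM in knockout RNA-seq. Its log2 difference was 0.71 ± 0.20 (adjusted p = 0.197). Cyp11a1 had 1.30, 0.724 and 0.899 FPKM in the control and 1.65, 2.03 and 2.04 FPKM in the knockout, a log2 difference of 0.93 ± 0.23 (adjusted p = 0.163). Neither gene passed the limit, and in both the groups did not overlap.

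The enzymes downstream included the member with the largest difference. Hsd3b1 was even across the control libraries, at 0.544, 0.546 and 0.475 FPKM, and across the knockout libraries, at 2.36, 2.63 and 2.57 FPKM. It rose by 2.07 ± 0.17 on the log2 scale (adjusted p = 0.00315). The paralog Hsd3b6 had 0.971, 1.04 and 0.762 FPKM in the control and 2.29, 2.23 and 2.31 FPKM in the knockout, and rose by 1.22 ± 0.17 (adjusted p = 0.0353). Cyp17a1, the 17α-hydroxylase on the way to androgens, had 1.84, 1.68 and 1.44 FPKM in the control and 3.67, 4.45 and 4.25 FPKM in the knockout. It rose by 1.27 ± 0.15 (adjusted p = 0.0189).

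Hsd17b3 makes testosterone in the last step, and it was listed at 0 in all 3 control RNA-seq libraries. The knockout RNA-seq libraries had 0.120, 0.0865 and 0.0689 FPKM. With the longest transcript of 1286 bases, these amount to between 1.93 and 7.38 reads by the steps, so the gene lay at the edge of detection. In RNC-seq it was above 0 in 1 control library (0.0673 FPKM) and 1 knockout library (0.0609 FPKM). It did not pass the filter on mean FPKM above 0.1 in either assay and was not tested.

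Log2 ratios between pairs of members in each RNA-seq library are given as a description, with no test, since the pairs were picked with the fitted differences known. The ratio of Hsd3b1 to Hsd3b6 was -0.73, -0.82 and -0.58 in the control and 0.04, 0.23 and 0.15 in the knockout. The ratio of Hsd3b1 to Star went from a mean of -0.20 ± 0.27 (SD, n = 3) to 1.16 ± 0.09. For both ratios the groups did not overlap. Insl3 over Cyp17a1 was 3.07 ± 0.25 in the control and 3.22 ± 0.28 in the knockout, with overlap.

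The RNA-seq calls depended on the number of libraries. Without any single knockout RNA-seq library only Hsd3b1 stayed past the limit (adjusted p of 0.0301 to 0.0363 by limma), without control replicate 1 or 2 there were 2 such members, without control replicate 3 there were 3, and in a fit over all 12 libraries Cyp17a1 alone passed (adjusted p = 0.0113). The calls over all genes fell as well, from 40 higher to 6, 7 and 5 without knockout RNA-seq replicate 1, 2 and 3, to between 20 and 27 without a control library, and to 16 in the fit over all 12 libraries.

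**Figure D3:**
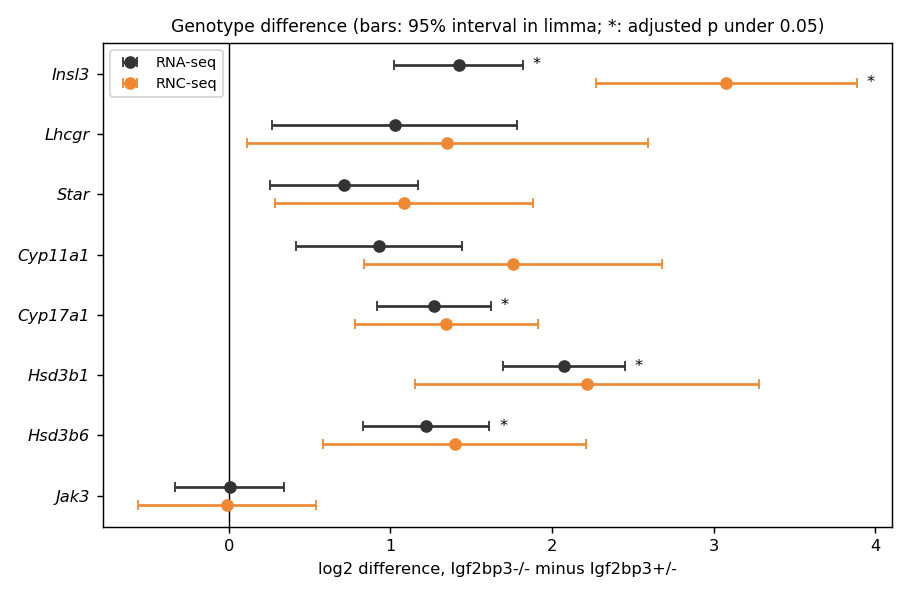
Log2 difference of Igf2bp3-/- minus Igf2bp3+/- for the 7 tested members and Jak3, in RNA-seq and in RNC-seq, with 95% intervals from limma and asterisks at adjusted p under 0.05. Members lie between 0.71 and 2.07 in RNA-seq and between 1.08 and 3.08 in RNC-seq, and Jak3 lies at 0.01 and -0.01.

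The second comparison asked the same of polysomal RNA. In RNC-seq, 1 of 7 members tested was significantly higher in the knockout, Insl3, against 0.0787% of all 19051 genes tested (15 genes, beside 7 lower, 0.0367%). After centring of each library on its median, the calls over all genes were 6 higher and 7 lower, the median difference of all genes went from 0.13 to 0.01, and Insl3 kept its call (adjusted p = 0.0426 by limma). Lhcgr passed the filter only through the knockout libraries. The 6 other members tested had a median log2 difference of 1.58, against 0.13 over all genes, and each had an unadjusted p under 0.05, as did 5.36% of all genes with a higher level. In these 6 the knockout libraries all stood above the control libraries, against 9.44% of all genes (1.85% had them all below).

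Insl3 had 6.57, 12.5 and 4.37 FPKM in the control RNC-seq libraries and 93.5, 53.8 and 44.9 FPKM in the knockout ones. The lowest knockout library was above the highest control library. The log2 difference was 3.08 ± 0.37 (adjusted p = 0.0104), equal to 8.45-fold. Without knockout RNC-seq replicate 1, the highest library, it was 2.77 with an adjusted p of 0.101. Without the filter on low FPKM the adjusted p was 0.0939. Jak3 again overlapped between genotypes, with 3.99, 4.52 and 4.24 FPKM in the control and 5.16, 4.55 and 3.19 FPKM in the knockout.

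None of the 5 transport and enzyme genes tested passed the limit in RNC-seq, and in none did the groups overlap, with log2 differences from 1.08 for Star to 2.22 for Hsd3b1. Hsd3b1 had 0.334, 0.0292 and 0.320 FPKM in the control and 0.820, 1.61 and 1.40 FPKM in the knockout, a log2 difference of 2.22 ± 0.49 (adjusted p = 0.277 by limma). The value of 0.0292 amounts to about 1.35 reads by the steps. Hsd3b6 had 0.815, 0.357 and 0.584 FPKM in the control and 2.36, 1.71 and 1.07 FPKM in the knockout (1.40 ± 0.37, adjusted p = 0.558). Cyp17a1 was the least scattered, with 1.17, 1.04 and 0.899 FPKM in the control and 3.01, 2.73 and 2.61 FPKM in the knockout. Its log2 difference was 1.35 ± 0.26 (adjusted p = 0.144). In the fit over all 12 libraries, Cyp17a1 (adjusted p = 0.00349) and Hsd3b1 (adjusted p = 0.0314) passed beside Insl3.

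Cyp11a1 had 0.650, 0.179 and 0.272 FPKM in control RNC-seq and 1.95, 1.34 and 0.926 FPKM in knockout RNC-seq, a log2 difference of 1.76 ± 0.42 (adjusted p = 0.400 by limma). Star had 0.247, 0.143 and 0.263 FPKM in the control and 0.657, 0.542 and 0.499 FPKM in the knockout (1.08 ± 0.37, adjusted p = 0.689). The groups of both lay apart at low levels. Lhcgr was listed at 0 in 2 control libraries and at 0.0412 FPKM in the third, and its knockout libraries had 0.507, 0.118 and 0.0777 FPKM. A single transcript, CT010467.1, took 15.9% to 19.4% of the summed FPKM in control RNC-seq and 8.14% to 14.6% in knockout RNC-seq, and its part in these differences was not tested.

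Whether the genotype difference itself changed between total and polysomal RNA was tested with an interaction term in a fit to the 12 libraries, which is the difference in translational efficiency (TE, RNC-seq over RNA-seq). Of the 6 members other than Lhcgr, 0 passed the limit in limma, and 1 had an unadjusted p under 0.05. Lhcgr, which passed the RNC-seq filter only through the knockout libraries, did not pass the limit either. Over all 18414 genes, 0.00543% passed with a higher and 0.0% with a lower TE in the knockout. The member with that p was Insl3, with a log2 TE difference of 1.66 ± 0.48 (95% interval of 0.63 to 2.68, adjusted p = 0.686). Its log2 ratio to Cyp17a1 in RNC-seq was 2.67 ± 0.70 (SD, n = 3) in the control and 4.40 ± 0.45 in the knockout, without overlap, again as a description. For Cyp17a1 the TE difference was 0.08, with an interval from -0.48 to 0.64, and for Hsd3b1 it was 0.14, with an interval from -1.07 to 1.35. A difference of 2-fold in either direction lay inside the interval of Hsd3b1 and outside that of Cyp17a1.

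Polysome loading within a genotype, the log2 difference of RNC-seq minus RNA-seq, was mostly below 0 for the members. In Igf2bp3+/- cells, 5 of the 6 members other than Lhcgr were significantly lower on polysomes than in total RNA, against 25.2% of all genes lower and 18.6% higher. These were Cyp11a1 (-1.30 ± 0.36, adjusted p = 0.0101 by limma), Star (-1.19 ± 0.25, adjusted p = 0.00206), Hsd3b1 (-1.12 ± 0.40, adjusted p = 0.0354), Insl3 (-1.02 ± 0.34, adjusted p = 0.0247) and Cyp17a1 (-0.62 ± 0.18, adjusted p = 0.0144). Hsd3b6 had -0.63 and did not pass. Lhcgr, which passed the RNC-seq filter only through the knockout libraries, had -0.89 and did not pass either. The median of the 6 members was -1.07, against -0.10 over all genes.

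In Igf2bp3-/- cells, 2 of the 6 members other than Lhcgr were significantly lower on polysomes, Star (-0.82 ± 0.25, adjusted p = 0.0297 by limma) and Cyp17a1 (-0.55 ± 0.18, adjusted p = 0.0421), against 14.0% of all genes. The median of the 6 members was -0.51, against -0.04 over all genes. Insl3 had a positive value, 0.64 ± 0.34, which did not pass the limit (adjusted p = 0.182). These contrasts share libraries with the genotype comparisons above. The calls depended on single libraries. In the control, 2 members (Cyp11a1 and Star) remained without RNA-seq replicate 1, and 3 remained without RNA-seq replicate 2 or RNC-seq replicate 3. In the knockout 0 remained without any single knockout RNA-seq library or without RNC-seq replicate 3, and 1 (Star) without control RNA-seq replicate 1 or 2 or knockout RNC-seq replicate 1 or 2. After median centring 3 members stayed lower in the control, while the calls over all genes went from 3420 higher and 4639 lower to 4725 higher and 3621 lower.

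**Figure D4:**
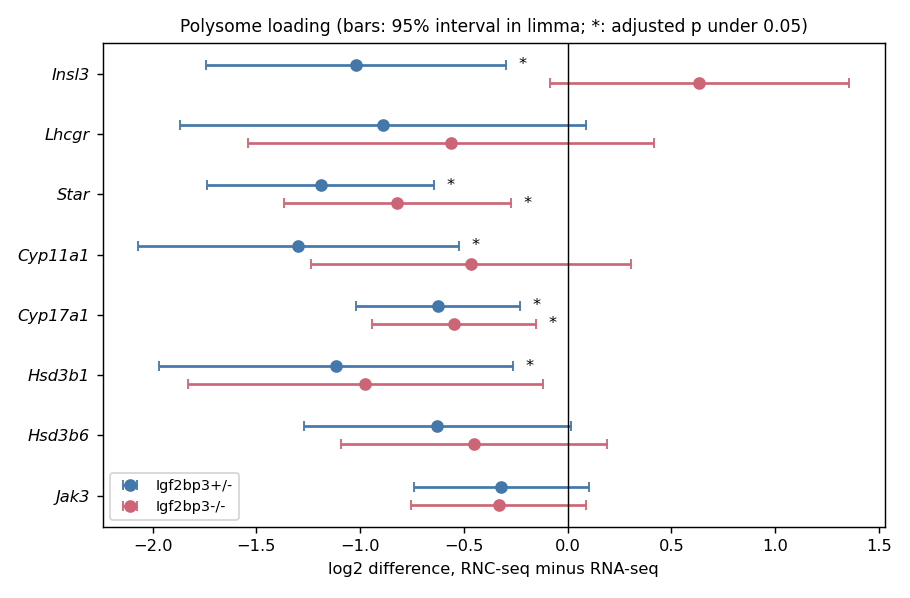
Log2 difference of RNC-seq minus RNA-seq for the 7 tested members and Jak3 in each genotype, with 95% intervals from limma and asterisks at adjusted p under 0.05. In the control all 7 members lie between -1.30 and -0.62, and in the knockout Insl3 alone lies above 0, at 0.64. Lhcgr passed the RNC-seq filter only through the knockout libraries.

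Other genes of Leydig cells were set beside the members. The list held 10 genes, of which 8 were tested in RNA-seq, and 4 of these were significantly higher in the knockout, with 0 lower. Its median log2 difference was 1.49, with Prlr and Pdgfra included, which passed the filter only through the knockout libraries. Ptgds, a prostaglandin D synthase, had 2.69, 2.84 and 1.88 FPKM in the control and 8.43, 8.83 and 10.2 FPKM in the knockout, and rose by 1.87 ± 0.17 (adjusted p = 0.00630 by limma). Fabp3, a fatty acid binding protein gene, rose by 1.72 (adjusted p = 0.0184), Akr1cl, an aldo-keto reductase gene, by 1.69 (adjusted p = 0.0178) and Aldh1a1, which makes retinoic acid, by 1.39 (adjusted p = 0.00950). In RNC-seq, 3 of the 6 tested were significantly higher, Ptgds (2.69, adjusted p = 0.00635), Akr1cl (2.08, adjusted p = 0.0265) and Fabp3 (1.74, adjusted p = 0.0476). Sult1e1, among the 6, passed the filter there only through the knockout libraries. Without knockout RNC-seq replicate 1 no gene of this list passed in RNC-seq. Without any other single RNC-seq library Ptgds passed, Akr1cl did not, and Fabp3 passed only without control replicate 1. With median centring, quantile normalization or no filter on low FPKM, Ptgds alone passed. In the fit over all 12 libraries Ptgds, Akr1cl, Fabp3 and Aldh1a1 passed in RNC-seq. The summed FPKM of the 10 genes was 5.74 to 8.01 in control and 23.0 to 26.2 in knockout RNA-seq, and 4.55 to 5.53 and 20.8 to 28.7 in RNC-seq. The 7 members other than Insl3 summed to 4.46 to 5.32 and 11.4 to 12.9 FPKM in RNA-seq, and to 1.75 to 3.22 and 6.59 to 9.32 FPKM in RNC-seq.

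The wider pathway, which germ cells also run in part, did not pass the limit at any gene. Among 19 genes of cholesterol synthesis, all tested, 0 were called by limma in either assay, and their median log2 difference was 0.10 in RNA-seq and 0.36 in RNC-seq. Fdft1, squalene synthase, was the highest of these, with a mean of 182 FPKM in control and 204 FPKM in knockout RNA-seq. None of the 10 electron carriers and cholesterol import genes was called, with medians of 0.20 and -0.0034. The mitochondrial electron carrier gene Fdx1 had 24.6 and 28.2 FPKM in RNA-seq, and Tspo, a mitochondrial membrane protein gene, had 0.229, 0.139 and 0.255 FPKM in the control and 0.430, 0.646 and 0.821 FPKM in the knockout (log2 difference of 1.24, adjusted p = 0.164 by limma). Of the 10 genes of cholesterol uptake and storage, 9 were tested in RNA-seq and 0 called. The counts of genes with an unadjusted p under 0.05 in RNA-seq were 3 higher for synthesis (3 in RNC-seq also), 2 higher for carriers and import, and 2 higher and 1 lower for uptake and storage.

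Regulators, androgen converting enzymes and paralogs were set beside the members as well, and none was called in either assay. Nr5a1 stood between 0.101 and 0.174 FPKM in control and between 0.188 and 0.315 FPKM in knockout RNA-seq (adjusted p = 0.435 by limma). Nr4a1, an orphan receptor gene, was the highest of the regulators, with a mean of 43.5 FPKM in control and 39.0 FPKM in knockout RNA-seq. Of 9 regulators, 4 were tested in RNA-seq, with 0 called and 2 higher at an unadjusted p under 0.05. Nr0b1, among these 2, passed the filter only through the knockout libraries. Rxfp2, the receptor of INSL3, had 13.4 and 13.7 FPKM in RNA-seq, and 0 of the 7 androgen conversion and receptor genes tested were called, with 0 at an unadjusted p under 0.05. The paralog Hsd3b7 had 0, 0 and 0.0952 FPKM in the control and 0.236, 0.380 and 0.0232 FPKM in the knockout. The enzymes Cyp11b1, Cyp11b2 and Cyp21a1, used in the adrenal gland and set here as a check of steroidogenic RNA from elsewhere, stood at or under 0.441 FPKM in all 12 libraries, and 0 of the 3 genes tested on the adrenal list was called (1 lower at an unadjusted p under 0.05).

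Lists of other cells outside the germ line also held genes that rose. Of 7 stromal genes, all tested in RNA-seq, 3 were significantly higher in the knockout, Dcn (log2 difference of 2.04, adjusted p = 0.00950 by limma), Igfbp6 (1.95, adjusted p = 0.00950) and Gsn (1.59, adjusted p = 0.0115), and the list summed to 3.71 to 4.71 FPKM in control and 12.6 to 16.1 FPKM in knockout RNA-seq. In RNC-seq it summed to 1.26 to 1.84 and 5.54 to 6.15 FPKM. Col1a1, among the 7, passed the RNA-seq filter only through the knockout libraries. Of 9 macrophage genes tested, Cd74 was higher (1.95, adjusted p = 0.0184), with sums of 5.53 to 6.86 and 9.12 to 10.1 FPKM, and 4 had an unadjusted p under 0.05 with a higher level in the knockout. C1qb, a complement gene and the highest of the list, had means of 3.21 FPKM in the control and 3.85 FPKM in the knockout, while the defining genes Adgre1 and Csf1r were at 0.429 FPKM or less in every RNA-seq library. Of 4 haemoglobin genes, Hbb-bs was higher (1.23, adjusted p = 0.0353), with sums of 6.36 to 7.02 and 11.6 to 14.0 FPKM. Without any single knockout RNA-seq library, 0 genes of the stromal, macrophage, haemoglobin and Sertoli lists passed the limit in RNA-seq, and of the other Leydig genes Ptgds alone did, without replicate 2. No stromal, macrophage or haemoglobin gene was called in the RNC-seq fit, where 3 stromal, 4 macrophage and 2 haemoglobin genes were higher at an unadjusted p under 0.05. In the fit over all 12 libraries, Dcn, Gsn, Igfbp6 and Cd74 passed in RNC-seq, as did Clu of the Sertoli list, and no haemoglobin gene did. For RNA-seq that fit called only Gsn and Clu of these lists. The part of these cells in the differences of the members was not tested.

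The Sertoli and endothelial lists were less uniform. Of 7 Sertoli genes tested in RNA-seq, Clu (1.08, adjusted p = 0.0201 by limma) and Ctsl (0.418 to 0.719 FPKM in the control and 1.54 to 2.00 FPKM in the knockout, adjusted p = 0.0453) were significantly higher, and the sums were 4.59 to 5.29 FPKM in the control and 9.49 to 9.81 FPKM in the knockout. Only 4 of the 7 had a positive log2 difference, the others being negative, and the median was 0.26. Clu made up most of the sum, with means of 3.12 FPKM in the control and 6.69 FPKM in the knockout. The defining genes Sox9 and Fshr stood at 0.185 FPKM or less in every RNA-seq library, and Fshr was listed at 0 in all 6 RNC-seq libraries. Endothelial genes summed to 3.64 to 4.09 FPKM in control and 3.30 to 4.06 FPKM in knockout RNA-seq, with 0 of 3 called (1 lower at an unadjusted p under 0.05). Peritubular genes summed to 123 to 141 and 144 to 164 FPKM, almost all of it Actg2, with 0 of 5 called (by unadjusted p under 0.05, 1 was higher and 1 lower). Every other gene of that list stood at 0.774 FPKM or less in all RNA-seq libraries. Of the 5 tested, 2 had a positive log2 difference, and the median was -0.30, so the sum does not stand for the list. The part of these cells in the differences was likewise not tested.

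No gene of the germ cell lists was called. In RNA-seq, 0 of 6 spermatogonial, 0 of 7 spermatocyte and 0 of 11 spermatid genes were called, with median log2 differences of 0.03, 0.13 and 0.13. At an unadjusted p under 0.05 there were 1 lower spermatogonial gene, no spermatocyte gene and 3 higher spermatid genes. The spermatid list summed to 9124 to 11579 FPKM in control and 10357 to 10630 FPKM in knockout RNA-seq.

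**Figure D5:**
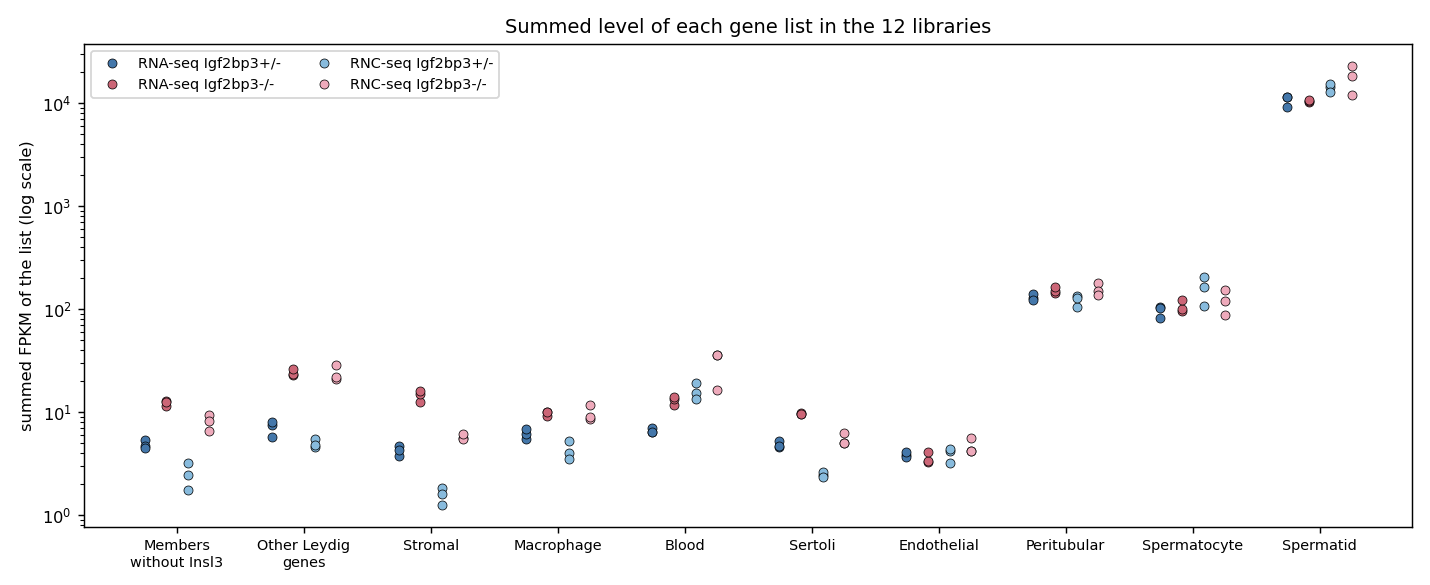
Summed FPKM of the members other than Insl3 and of 9 other gene lists in each of the 12 libraries, on a log axis, with 1 circle per library coloured by assay and genotype. The knockout circles stand above the control circles of the same assay for the members (11.4 to 12.9 against 4.46 to 5.32 FPKM in RNA-seq), the other Leydig genes, the stromal, macrophage and Sertoli lists, and overlap with them for the spermatid list. The Sertoli sum is mostly Clu and the peritubular sum almost all Actg2, so neither stands for its whole list.

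The genes whose pattern over the 12 libraries was most like the mean of the 7 tested members were found by the root-mean-square difference of centred log2 values, among genes with a mean of at least 1 FPKM. The 7 include Lhcgr, which passed the RNC-seq filter only through the knockout libraries. The nearest were Gstm1 (0.27) and Agt (0.30), which encode a glutathione transferase and angiotensinogen, and then Clu, Gm21190, Letm1, Cdk14, Lcn2, Cfap99, Gstm2 and Ftl1 (0.30 to 0.39). Of these 10, 4 lie on chromosome 5 (Gm21190, Letm1, Cdk14 and Cfap99), but the share of all compared genes on it was not computed, so the count is a description only. By limma, 8 of the 10 were significantly higher in the knockout in RNA-seq and 6 in RNC-seq. The profile itself rises in the knockout, so such calls follow from the choice, and a shared cell of origin was not tested. The median over all genes compared was 0.87, and the lowest 1% lay under 0.61. Gstm1 had 5.68, 6.35 and 4.73 FPKM in control and 18.3, 20.9 and 19.4 FPKM in knockout RNA-seq, and 3.52, 3.74 and 3.01 against 12.9, 11.8 and 8.94 FPKM in RNC-seq. When Insl3 was left out of the profile, 8 of the 10 stayed among the nearest 10. Among the members, Hsd3b6 (0.25) and Cyp17a1 (0.26) lay nearest to the mean of the others, and Insl3 (0.81) and Hsd3b1 (0.68) farthest from it.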

How the data were processed

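The deposited data are FPKM, computed by the authors for the 12 libraries in 1 table. Per the labels and the methods, reads were trimmed with Trim Galore 0.6.6, mapped by HISAT2 on GRCm38 and assembled into FPKM by StringTie 2.1.7. The annotation release and the use of strand are not stated, and labels and methods name different library kits. Of 28668 symbols, 25 turned into dates by spreadsheet software were removed (0.0995% of FPKM). The deposited FPKM were taken as log2(FPKM + 0.1) and tested with limma 3.58.1 in R 4.3.3, with an intensity trend, among genes with a mean FPKM above 0.1, two-sided, with Benjamini-Hochberg adjustment over all genes and a limit of 0.05. Genotype was tested over the 6 libraries of each assay, and TE and polysome loading over all 12. The fits were tested on simulated data. No counts were used, so the precision from depth is known only through the approximate read steps, which came from 8914 genes with a single transcript over 400 bases.

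Members, gene lists and tests were chosen with earlier results of these data known. Text names all members, Jak3, the genes of each list past the limit or highest in it, and the 10 genes nearest in pattern. Others (Tspo, Fdx1, Nr5a1, Nr0b1, Hsd3b7, the adrenal enzymes, Prlr, Pdgfra, Sult1e1, Col1a1, Adgre1, Csf1r, Sox9 and Fshr) were picked after their values were seen. Positions came from GENCODE M21 and promoters from RefSeq (GRCm38.p6). By the methods, the total and polysomal RNA of a replicate come from 1 extract, but the labels do not say that numbers match.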

Additional observations from a re-analysis of the deposited data

How the results depend on the processing

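Depth limits the lowest members, Lhcgr and Hsd17b3, to a few reads in some libraries. In RNA-seq, where 4 members passed the limit, 1 passed in a fit over all 12 libraries and 1 to 3 when a single library was left out. In RNC-seq, where 1 passed, 3 passed in the fit over all 12 libraries, 0 without the filter on low FPKM, and 0 to 1 when a single library was left out (0 without knockout replicate 1). For TE, 0 passed whichever library was left out. For loading in Igf2bp3+/-, where 5 passed, 2 passed with a mean FPKM above 1 (which leaves 3 members to test), 3 with each library centred on its median, 3 with quantile normalization, and 2 to 5 when a library was left out. For loading in Igf2bp3-/-, where 2 passed, 1 passed without the filter, 1 with a mean FPKM above 1, and 0 to 3 when a library was left out. The causes of these changes were not tested, other than the fewer libraries or genes where the alternative itself removes them. The sign of every genotype difference in RNA-seq and RNC-seq and of every loading value was kept under all alternatives that gave a value.

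Deviations of same-numbered libraries from their group means correlated between -0.104 and 0.205 for RNA-seq with RNC-seq of the same genotype. For control with knockout in the same assay the range was -0.083 to 0.241. The numbers were not taken to pair the samples. As an alternative, a replicate block joined control and knockout libraries by number within an assay, although no label pairs them. For TE and loading it joined RNA-seq and RNC-seq libraries of the same genotype and number. With the block, 0 members passed in RNA-seq (4 without it), 0 genes of the other lists passed there, and the higher calls over all genes went from 40 to 4. In RNC-seq the higher calls over all genes went from 15 to 23, and Cd74, Dcn and Igfbp6 were called beside Akr1cl, Fabp3 and Ptgds. For loading in Igf2bp3-/-, 0 members were lower (2 without it), and Insl3 alone of the members was then called higher. The block changed no count of members in RNC-seq, TE or loading in Igf2bp3+/-.

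Signs turned only for small TE differences. That of Cyp17a1 (0.08) became -0.0546 with a pseudocount of 1, -0.0524 with median centring and -0.10 with quantile normalization, and ranged from -0.0136 to 0.168 when a library was left out (below 0 without knockout RNA-seq replicate 1, at -0.0029, or control RNC-seq replicate 3). That of Hsd3b6 (0.18) became -0.0105 with a pseudocount of 1 and -0.0201 with quantile normalization, and ranged from -0.0882 to 0.458 (below 0 without control RNC-seq replicate 2 or knockout RNC-seq replicate 1, at -0.0775). That of Hsd3b1 (0.14) became -0.324 with a pseudocount of 1, -0.0619 with quantile normalization and -0.13 with array weights, and ranged from -0.434 to 0.439 (below 0 without control RNC-seq replicate 2 or knockout RNC-seq replicate 2, at -0.0394).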
